A study of Homo sapiens with 4 samples.

Results

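Long intergenic noncoding RNAs that carry a numbered placeholder name were followed after transfection of a miR-335 mimic into GIST-T1, an established line of human gastrointestinal stromal tumor (GIST) cells. The members are the genes whose name on the array begins with LINC or NCRNA directly followed by digits, each with all its non-control probes. They number 136 of 36337 gene names, 133 with LINC and 3 with NCRNA, and were read by 231 of 50599 non-control probes. The mimic group received 100 pmol of a mirVana miR-335 mimic, the control group 100 pmol of mirVana miRNA mimic Negative Control #1, both by Nucleofector, and RNA was taken at 48 h. Each group had 2 arrays of 1 color, and no label states that they came from separate cultures, so the p-values measure the spread between these arrays, which may be technical. The descriptions of both mimic samples carry a second line that names a miR-34a mimic, whereas their titles, their transfection field and the design text name miR-335, which was followed here. Both groups are the same cell line, so the values describe 1 line and 1 time point.

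A long noncoding RNA is a transcript without a recognized long open reading frame, and the intergenic ones lie between protein-coding genes. Many are spliced and polyadenylated like messenger RNAs, are present at low levels and are made in few tissues. A LINC number is a placeholder name, and some of these genes were later renamed for a host function, a disease link or a small encoded protein. A microRNA mimic is a synthetic duplex that loads the mature microRNA into the silencing complex, which pairs with transcripts mainly through the seed. The mature strand of miR-335-5p, from RefSeq (GRCh38.p14), is printed with its seed, bases 2 to 8, in capitals.
hsa-miR-335-5p: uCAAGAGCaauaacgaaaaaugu

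Over all probes, 40.3% to 41.9% were well above background on each array, and no non-control spot was saturated. Levels are given as log2 processed intensity minus the 75th percentile of the same array, so that 0 is that percentile and 1 unit is a 2-fold difference. Well above background is the scanner software's flag on at least 0.5 of a probe's usable spots. All 13 probes of the 6 GIST and interstitial Cajal cell markers, KIT among them, were well above background on all 4 arrays. So was 1 probe each of DES, a smooth muscle gene, and of EPCAM, an epithelial gene. No probe of MYH11 or KRT20, the other listed markers of smooth muscle and epithelium, was well above background on all 4 arrays. None of the 6 endothelial and 6 leukocyte marker probes was.

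Most of the named intergenic RNAs were not measurable in these cells. Of the 231 probes, 66 and 60 were well above background on mimic replicates 1 and 2, and 63 and 65 on control replicates 1 and 2. The shares, 28.6%, 26.0%, 27.3% and 28.1%, differed little between the groups. Across arrays, 162 probes were not well above background on any, 4 were on 1 array, 4 on 2, 2 on 3 and 59 on all 4. The 59 are 25.5% of the members, against 31.5% of the 3757 other probes with a RefSeq noncoding accession, 59.6% of the 25219 probes with a RefSeq messenger RNA accession and 38.2% of all probes.

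**Figure D1:**
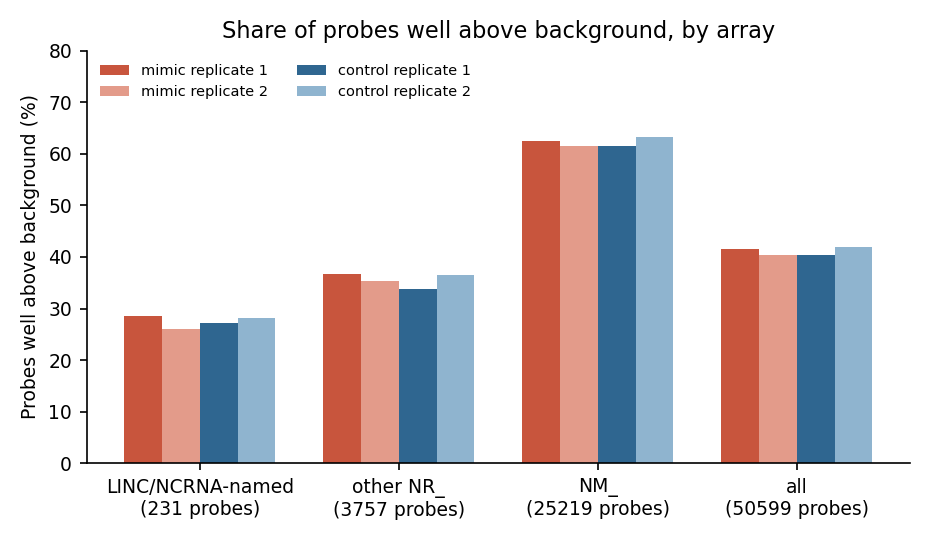
Share of probes well above background (%, vertical axis) on each of the 4 arrays, for the LINC- and NCRNA-named probes, other probes with a RefSeq noncoding accession (NR_), probes with a RefSeq messenger RNA accession (NM_) and all probes. The named intergenic RNAs lie between 26.0% and 28.6% on the 4 arrays, below each of the other classes.

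By gene, 93 of the 136 were well above background on no array, 36 had at least 1 probe that was so on both arrays of a group, and 7 were detected only in part. The 36 genes had 61 such probes, which are the tested ones. Of these, 59 were well above background on all 4 arrays, LINC00421 on all but mimic replicate 2 and NCRNA00083 on all but control replicate 1. LINC00421 was thus tested through its control arrays and NCRNA00083, now the protein-coding CLEC20A, through its mimic arrays, and no probe was well above background on both arrays of 1 group and neither of the other. LINC00421 read -2.40 and -3.06 with the mimic and -2.44 and -2.21 with the control, a difference of -0.41 (SE 0.26, adjusted p = 0.399). NCRNA00083 read -1.82 and -2.16 against -2.60 and -2.10, a difference of 0.36 (SE 0.23, adjusted p = 0.401). The groups overlapped in both. The 8 probes detected in part were named after their values were seen. Probes of LINC00340, LINC00403, LINC00471 and LINC00085 were well above background on 1 array of each group. LINC00184 was so on mimic replicate 1 only, LINC00032 on control replicate 1 only, and LINC00028 and LINC00473 on control replicate 2 only.

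The detected genes were spread unevenly over the chromosomes (hg19, as the files give it). Chromosome 21 held the most members, 40 probes of 25 gene names, of which 4 probes were tested. Chromosome 13 had 23 probes and 3 tested ones. By contrast, 8 of 10 probes on chromosome 7 were tested, and they belong to LINC00265 (6 probes) and LINC00174 (2 probes). None of 5 probes on chromosome 16 was tested.

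Many of the numbered names have been replaced. In RefSeq (GRCh38.p14), 134 of the 136 names were matched, 132 of them to 1 gene, and 95 still carry the array's name. RefSeq classes 119 of the matched genes as long noncoding, 13 as protein-coding and 2 as transcribed pseudogenes. The protein-coding ones were detected more often, with 8 of 13 tested (61.5%) against 27 of 119 long noncoding ones (22.7%). By the probe with the highest level of each gene, 2 of the 8 protein-coding genes were higher with the mimic and 6 lower, with a median difference of -0.11. The 2 higher ones include NCRNA00083, which was tested through its mimic arrays and was not well above background on all 4 arrays. Among the 6, LINC00086 and LINC00087 are matched to the same pair of genes, and the value of LINC00086 rests on control replicate 1. Over all messenger RNA probes well above background on all 4 arrays, 44.8% were higher. A contrast between the classes was not tested. Of the 27 long noncoding genes, 15 were higher and 12 lower, with a median of 0.02. The 12 include LINC00421, which was tested through its control arrays.

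After the mimic, 4 of the 61 tested probes differed from the control in limma at a Benjamini-Hochberg adjusted p under 0.05, and all 4 were higher. They belong to LINC00173 (2 probes), LINC00265 and LINC00085. The 4 probes are 6.56% of the members, where 2.62% of all 20328 tested probes passed. In the higher direction the share of all probes was 1.47%, and in the lower direction 1.15%, with no member there. Among the other probes with a noncoding accession, 4.11% of 1291 tested passed as higher and 2.09% as lower. Without the adjustment, 23 members (37.7%) had a p under 0.05, 15 of them higher, against 25.3% of all tested probes. Whether the 4 calls hold with 1 array fewer cannot be told, since such a fit leaves 1 array in a group. With any 1 of the 4 arrays left out, the differences of the 4 called probes ranged from 0.46 to 1.20. With the levels scaled to the spike-in probes in place of the 75th percentile, 21 members passed, 5 higher and 16 lower. That scaling moved the median difference of all tested probes from -0.01 to -0.20. The share of all probes that passed with it is not given, so the 21 are not read as a result about the members.

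The sizes of the differences were modest. The mean levels of the groups lay more than 1.5-fold apart in 5 member probes (8.2%), against 3.9% of all tested probes. Those 5 are the pair of LINC00173, 1 of LINC00265, LINC00086 and LINC00355. The mimic and control arrays did not overlap in 37 of the 61 (60.7%), 23 higher and 14 lower, and they did not overlap in 59.7% of all tested probes, so that the members' share was near the background.

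Over the 59 probes well above background on all 4 arrays, the median difference was 0.04 (quartiles -0.11 and 0.24), with 35 higher and 24 lower. It was 0.03 in the other noncoding probes, -0.02 in messenger RNA probes and -0.01 in all probes. Scaled to the spike-in probes, the members' median was -0.15 and that of all tested probes -0.20, so the members' direction rests on the scaling. It also rests on counting probes, since genes with up to 6 probes weigh more: by the brightest probe of each of the 36 tested genes, 17 were higher and 19 lower, with a median of -0.04. Of these 36 genes, 34 were well above background on all 4 arrays at that probe. The others, NCRNA00083 (higher) and LINC00421 (lower), were each tested through the group where they read higher. Differences of at least 0.3 in either direction were seen in 13 of the 59 (22.0%), against 11.3% of all such probes. Of those 13, 12 had a mean level under the 75th percentile, compared with 31 of the 59 in all (52.5%). Over all probes the shares were 64.9% of those with such a difference and 34.9% of those well above background on all 4 arrays. The 2 arrays of a group differed by a median of 0.07 (mimic) and 0.09 (control) over the members, and pairs of a mimic and a control array by 0.15 to 0.23.

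**Figure D2:**
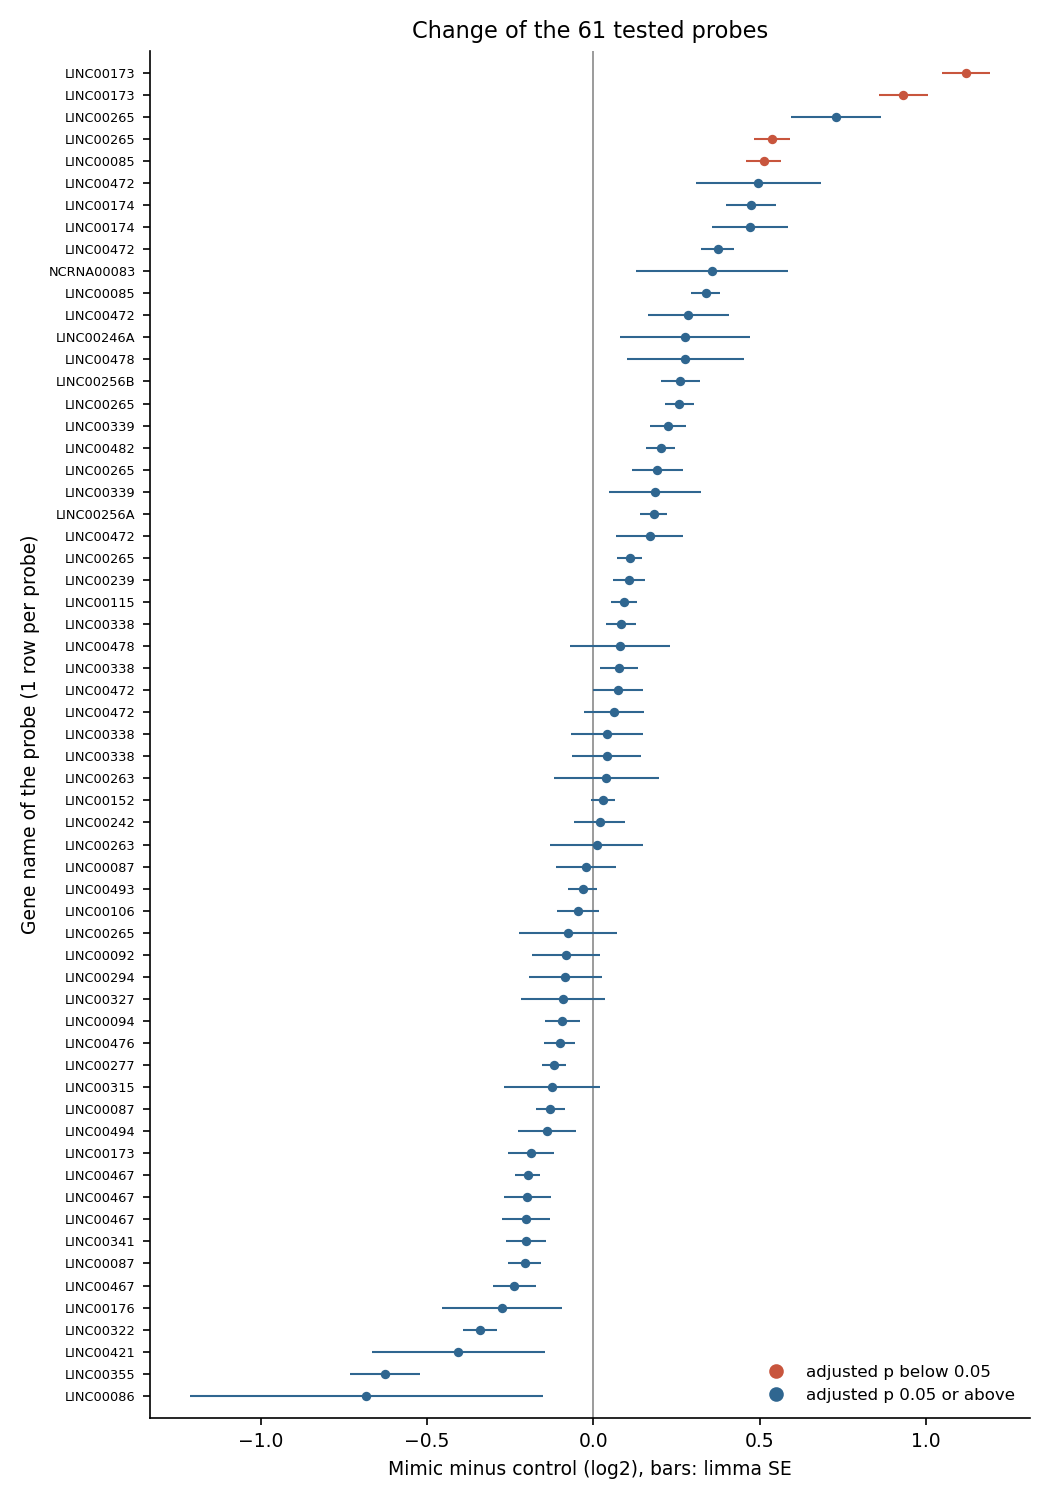
Mimic minus control difference (log2, horizontal axis) of each of the 61 tested probes, ordered by size, with the standard error from limma as bars and 1 row per probe labeled by gene name. The 4 probes with an adjusted p below 0.05 lie at 0.51, 0.54, 0.93 and 1.12, and the lowest value, LINC00086 at -0.68, has the widest bar.

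The largest differences lay in LINC00173, a long noncoding RNA gene on chromosome 12 with 3 tested probes that did not move together. The probes are printed because they separate the parts of the gene that were higher from the part that was not. They lie on the plus strand of hg19 at chr12:116972087-116972146 (base 357 of transcript variant 1), chr12:116973091-116973150 (base 1361 of variant 1) and chr12:116974257-116974316 (base 373 of variant 2), from upstream to downstream.
LINC00173 A_21_P0007502: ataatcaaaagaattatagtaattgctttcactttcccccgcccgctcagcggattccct
LINC00173 A_33_P3331511: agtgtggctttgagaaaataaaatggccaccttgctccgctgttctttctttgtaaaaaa
LINC00173 A_21_P0000535: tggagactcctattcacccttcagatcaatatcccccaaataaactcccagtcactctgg

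The downstream probe, listed for variant 2, read -1.42 and -1.59 on the mimic arrays and -2.65 and -2.60 on the control arrays. Both mimic arrays were far above both control arrays, and the probe rose by 1.12 (SE 0.07, adjusted p = 0.035), which is 2.17-fold. The lowest level of any probe well above background was -2.95 on control replicate 1 and -3.19 on control replicate 2. The control values of this probe thus lay near the floor, and the fold depends on the background correction. The middle probe, listed for variant 1, read -0.94 and -0.81 with the mimic and -1.75 and -1.87 with the control. It also rose without overlap, by 0.93 (SE 0.07, adjusted p = 0.037), or 1.91-fold. The upstream probe of variant 1 was on the other side: -0.29 and -0.13 with the mimic, and -0.03 and -0.02 with the control. Its difference was -0.19 (SE 0.07, adjusted p = 0.218), so probes of 1 gene, and of 1 listed variant, disagreed in sign. The upstream difference was -0.11 without mimic replicate 1. With normexp background correction the differences, from downstream to upstream, were 0.47, 0.49 and -0.088. The difference between the probes was not tested.

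LINC00265 on chromosome 7 was read by 6 tested probes, and 5 of them were higher with the mimic. The probes are printed because some of them cannot tell this gene from near-identical copies. Capitals mark stretches of at least 25 bases that a probe of another gene name on the array also holds. All lie on the plus strand of hg19 and are ordered by their first base in the transcript.
LINC00265 A_19_P00810748, base 113, chr7:39773280-39773339: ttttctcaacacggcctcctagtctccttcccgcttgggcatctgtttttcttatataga
LINC00265 A_21_P0013267, base 521, chr7:39807047-39807106: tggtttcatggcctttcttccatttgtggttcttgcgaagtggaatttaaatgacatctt
LINC00265 A_24_P583225, base 1235, chr7:39821393-39821452: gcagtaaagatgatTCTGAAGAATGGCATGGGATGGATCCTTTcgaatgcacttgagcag
LINC00265 A_33_P3268629, base 2889, chr7:39832468-39832527: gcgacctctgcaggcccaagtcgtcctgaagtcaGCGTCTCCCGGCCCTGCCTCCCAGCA
LINC00265 A_33_P3365747, base 4018, chr7:39833597-39833656: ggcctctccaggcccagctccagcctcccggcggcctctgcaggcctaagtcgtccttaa
LINC00265 A_32_P191503, base 4560, chr7:39834139-39834198: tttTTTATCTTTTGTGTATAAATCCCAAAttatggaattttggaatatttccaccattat

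The probe at base 521 read -0.32 and -0.39 on the mimic arrays and -0.94 and -0.85 on the control arrays. The groups stood apart, and the probe rose by 0.54 (SE 0.06, adjusted p = 0.046), or 1.45-fold. At base 1235 the levels were -0.89 and -1.24 with the mimic and -1.81 and -1.79 with the control. That difference was larger, 0.73, but the mimic arrays were further apart (SE 0.14, adjusted p = 0.094). The probes nearer the end of the transcript, at bases 2889, 4018 and 4560, were higher by 0.26, 0.11 and 0.19, none past the threshold, and the first one, at base 113, differed by -0.08 with overlapping groups.

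The files list the probes at bases 521 and 1235 also for transcripts of LINC01347, the latter also for LINC00999 and LINC01000, and the one at base 4560 also for LINC01061. The signal of these probes is therefore uncertain as to the gene. The array held 26 probes of those other genes, under older names, and 21 were tested. Of these, 18 were higher with the mimic and 2 passed the threshold, with differences from -0.06 to 0.69. The probe at 0.69 was well above background on 3 arrays only. It was tested through its mimic arrays, where it read higher. Over all probes well above background on all 4 arrays 45.8% were higher, and 2.62% of all tested probes passed. Probes of near-identical copies are not separate readings. Both copy probes that passed bear the name LOC731275, matched to LINC01347, and rose by 0.51 (SE 0.04, adjusted p = 0.0351) and 0.55 (SE 0.04, adjusted p = 0.0366). The probe at base 4018 is listed for 3 further RefSeq accessions, for which no other gene was matched. The probes of other names that hold the marked stretches differed by 0.32 (XLOC_006132, base 1235), -0.02 (LOC399744, base 2889) and 0.16 (THC2572360, base 4560).

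LINC00085, now SPACA6 in RefSeq, a protein-coding gene known for a role in the fusion of sperm and egg, was higher at both of its tested probes. At base 1395 of the transcript the mimic arrays read -0.24 and -0.20 and the control arrays -0.68 and -0.78. The probe rose by 0.51 (SE 0.05, adjusted p = 0.046), or 1.43-fold, with no overlap. The probe at base 1872 read 2.03 and 2.05 against 1.67 and 1.74, a difference of 0.34 (SE 0.04) just outside the threshold (adjusted p = 0.061).

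LINC00174, a long noncoding RNA gene on chromosome 7, was higher by the same amount at both probes. At base 466 the levels were 0.24 and 0.21 with the mimic and -0.39 and -0.10 with the control, a difference of 0.47 (SE 0.12, adjusted p = 0.13). At base 4206 they were -1.08 and -1.26 with the mimic and -1.65 and -1.63 with the control, also a difference of 0.47 (SE 0.08, adjusted p = 0.078). The groups did not overlap at either probe, and neither passed the threshold. The probe at base 466 shares a stretch of at least 25 bases with probes of LOC729737 (0.15) and AK125099 (0.49).

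**Figure D3:**
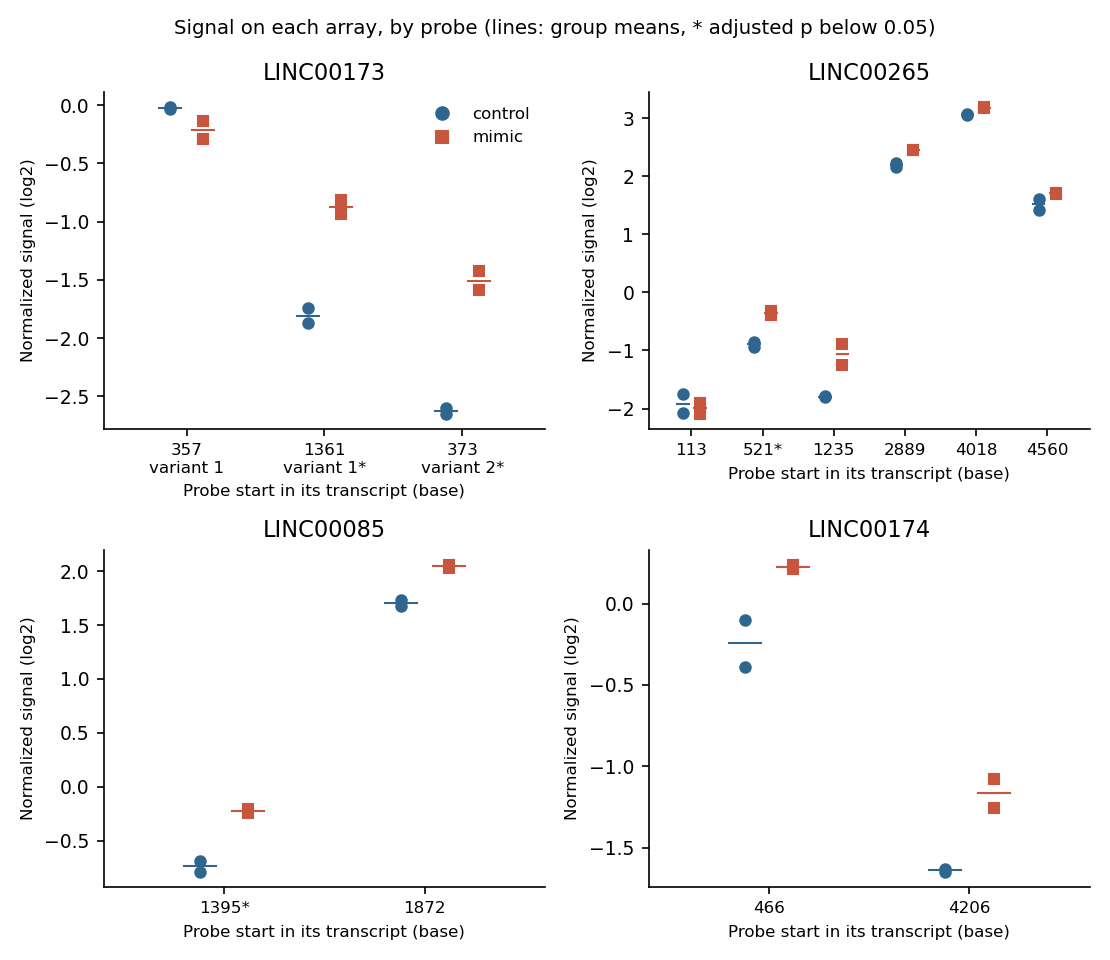
Normalized signal (log2, vertical axis) on each array for the tested probes of LINC00173, LINC00265, LINC00085 and LINC00174, placed by the probe's first base in its transcript (for LINC00173 in genomic order, with the variant named). Circles are control arrays, squares mimic arrays and short lines group means. The mimic arrays lie above the control arrays at every probe shown except the first of LINC00173, where they lie below, and the first of LINC00265, where they overlap.

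The second probe of LINC00174 is the sole tested member whose own letters pair with the seed of miR-335-5p. It lies on the minus strand of hg19 at chr7:65841189-65841248, and the 7 bases complementary to the seed, GCTCTTG, are in capitals.
LINC00174 A_23_P397543: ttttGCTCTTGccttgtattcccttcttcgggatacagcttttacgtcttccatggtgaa

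These 7 letters were searched on the strand of the transcript and stood in 3 of the 231 member probes (1.30%), those of LINC00174, LINC00189 and LINC00051, and in 0.437% of all probes. The transcripts outside the 60 bases of each probe were not searched. The match is a description, and the probe that holds it was higher, not lower, with the mimic. For miR-335-3p, the complement of its seed, ATGAAAA, stood in 5 member probes (2.16%) and 1.22% of all probes. The tested one of those belongs to LINC00478.

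No member fell past the threshold in limma (8 of the lower ones had an unadjusted p under 0.05), and the lowest values differed in how far they rest on single arrays. LINC00086, whose name RefSeq pairs with both SMIM10L2A and SMIM10L2B, read -1.20 and -1.19 with the mimic and 0.20 and -1.22 with the control. Control replicate 1 alone stood apart, and the difference of -0.68 (SE 0.53, adjusted p = 0.475) became 0.028 without it. Its probe shares at least 25 bases with one of LINC00087, a name matched to the same pair of genes, and the 3 probes of LINC00087 differed by -0.02, -0.21 and -0.13.

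LINC00355 read -1.22 and -1.47 with the mimic and -0.76 and -0.68 with the control. Its arrays did not overlap, and the difference of -0.63 (SE 0.11) had an adjusted p of 0.083. It was -0.35 with normexp background correction. LINC00322 read -0.21 and -0.30 against 0.07 and 0.10, again without overlap, with a difference of -0.34 (SE 0.05, adjusted p = 0.072).

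The next lowest genes included some with a protein product. LINC00176, now C20orf204, read 1.09 and 0.63 with the mimic and 1.18 and 1.09 with the control, a difference of -0.27 (SE 0.18, adjusted p = 0.411) with overlapping groups, which was -0.042 without mimic replicate 2 and -0.51 without mimic replicate 1. LINC00341, now SYNE3, which encodes a nesprin that anchors the nuclear envelope to the cytoskeleton, read 0.61 and 0.52 against 0.81 and 0.72. Its groups did not overlap, and its difference was -0.20 (SE 0.06, adjusted p = 0.159). LINC00494 differed by -0.14 (SE 0.09, adjusted p = 0.392), with both mimic arrays, -1.70 and -1.91, under the control arrays, -1.65 and -1.68, by a narrow gap. It was -0.033 without mimic replicate 2 and -0.25 without mimic replicate 1.

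LINC00467, a noncoding RNA studied in several tumors, had lower values at every tested probe. Its 4 tested probes, from base 342 to base 636, differed by -0.20, -0.24, -0.20 and -0.20 (SE 0.04 to 0.07). At base 570, the brightest, the mimic arrays read 2.08 and 2.11 and the control arrays 2.41 and 2.26. The groups did not overlap at any of the 4, and the adjusted p ranged from 0.099 to 0.206. The last 3 probes overlap in part, so they are not separate readings of the gene.

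Besides LINC00174, several genes without a called probe had higher values. LINC00256B and LINC00256A, now FAM225B and FAM225A, a pair of related noncoding genes on chromosome 9, were higher by 0.26 (SE 0.06, adjusted p = 0.12) and 0.18 (SE 0.04, adjusted p = 0.114). LINC00256B read 0.46 and 0.54 with the mimic and 0.29 and 0.19 with the control, and LINC00256A read 0.25 and 0.26 against 0.05 and 0.10. Both were without overlap. LINC00339 differed by 0.23 at the brighter of its 2 probes (SE 0.05, adjusted p = 0.126) and by 0.18 at the other. LINC00482 read -1.95 and -1.89 against -2.12 and -2.13, a difference of 0.20 (SE 0.04, adjusted p = 0.109). LINC00246A, now FAM226A, whose probe the files also list for FAM226B, differed by 0.28 but with overlapping groups (SE 0.20, adjusted p = 0.442). Its difference was 0.089 without control replicate 1, 0.096 without mimic replicate 1, 0.46 without either control replicate 2 or mimic replicate 2.

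LINC00472, a noncoding RNA described as growth-restraining in breast cancer, had 6 tested probes, all higher and none past the threshold. The 4 upstream probes differed by 0.50 at base 560, 0.37 at base 858, 0.29 at base 860 and 0.17 at base 879. The 2 probes near the end, at bases 2624 and 2724, differed by 0.06 and 0.07 with overlapping groups. At base 858, the lowest adjusted p of the gene (0.065), the mimic arrays read -1.09 and -1.15 and the control arrays -1.53 and -1.45. The brightest probe, at base 2724, read 1.30 and 1.47 against 1.34 and 1.28. A gradient along the transcript was not tested, and the 3 probes at bases 858 to 879 overlap one another.

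**Figure D4:**
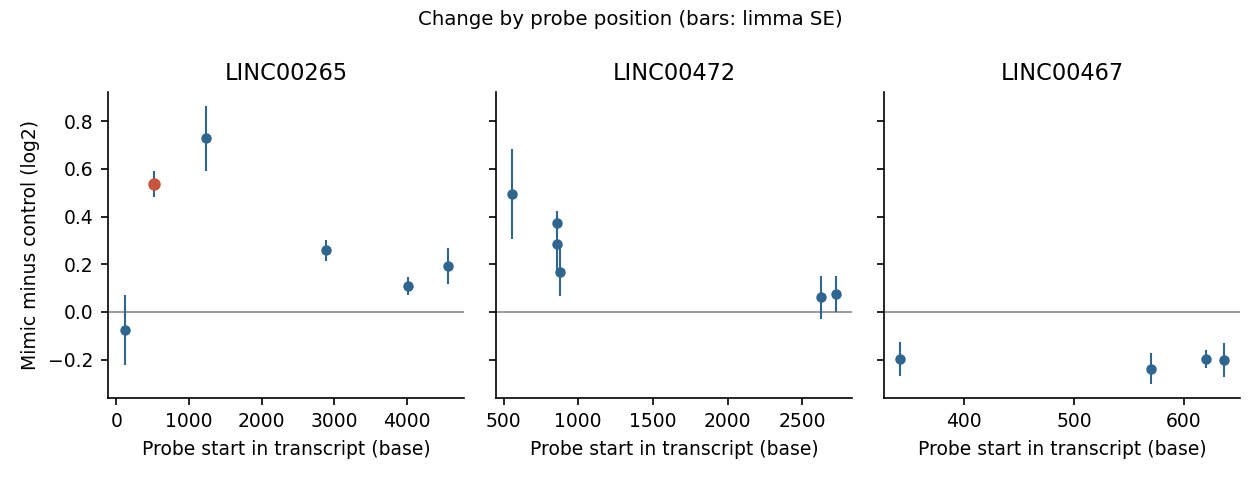
Mimic minus control difference (log2, vertical axis, bars are the standard error from limma) against the first base of each probe in its transcript (horizontal axis) for LINC00265, LINC00472 and LINC00467. The red point is the LINC00265 probe past the threshold. The probes of LINC00467 lie together between -0.24 and -0.20, whereas those of LINC00265 range from -0.08 to 0.73.

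In all, 11 genes had at least 2 tested probes, with 36 probes between them, and 9 of the 11 had differences of 1 sign. The exceptions were LINC00173 and LINC00265. In 5 genes the probes lay within 0.1 of each other, among them LINC00338, now SNHG20, which hosts a small RNA. Its 4 probes differed by 0.04 to 0.08. Those of LINC00263, now OLMALINC, differed by 0.01 and 0.04.

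Of the tested genes on 3 lists (micropeptide genes, small RNA hosts and intergenic RNAs with a known role), none passed the threshold. LINC00467 and LINC00472 are on the last of these. The lists held 1, 6 and 11 tested probes, and 2.62% of all tested probes passed, so none among so few is near the background. LINC00493, now SMIM26, which encodes a small mitochondrial protein, read 5.64 and 5.70 with the mimic and 5.69 and 5.71 with the control, a difference of -0.03 (SE 0.04). LINC00152, now CYTOR, studied for growth promotion in tumors, read 3.95 and 3.97 against 3.94 and 3.93, a difference of 0.03 (SE 0.04, adjusted p = 0.664). Its probe is also listed for MIR4435-2HG, a near-identical copy. LINC00478, now MIR99AHG, the host of a microRNA cluster that includes let-7c, differed by 0.08 and 0.28 at its 2 probes (adjusted p = 0.763 and 0.399).

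Several well-studied members were not well above background on any array. They are LINC00116, now MTLN, which encodes the mitochondrial peptide mitoregulin, and LINC00261, LINC00312, LINC00461 and LINC00511. For these the arrays give only an upper bound on the signal, so that no difference was computed.

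For comparison, 14 of 15 listed long noncoding RNAs with names of their own were on the array. Among their 57 tested probes, 12 passed as higher and none as lower. The 12 belong to FTX, KCNQ1OT1, MALAT1, MEG3 and NEAT1. Of all tested probes 1.47% passed as higher, and of the other probes with a noncoding accession 4.11%. The 57 probes belong to 14 genes, so they are not separate readings.

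The protein-coding genes next to the members were measured on the same arrays. For 34 of the 36 tested genes the file's chromosome matched RefSeq, and 22 of them had a tested messenger RNA probe within 100 kb. None of these nearest coding probes passed the threshold, and their median difference was 0.02. Of all tested messenger RNA probes, 0.45% passed as higher and 1.08% as lower, so none among 22 is near that background. The member and its neighbor were both higher in 5 pairs, both lower in 4 and opposite in 13. The pairs are not all separate. The same SLC31A2 probe serves LINC00256A and LINC00256B, and the same C9orf102 probe serves LINC00092 and LINC00476, all opposite pairs. In another opposite pair, LINC00086 with ZNF449, the sign of the member rests on control replicate 1. LINC00421 with TPTE2 is also an opposite pair, and LINC00421 was tested through its control arrays, where it read higher. RefSeq classes 16 of the 22 members as long noncoding and 6 as protein-coding. In the 16, both were higher in 4 pairs, both lower in 1 and opposite in 11. Within 10 kb there were 6 pairs, with neighbors from -0.04 to 0.10.

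The neighbors of 2 members stood out after their values were seen. SIK1, which encodes a salt-inducible kinase and lies 86.2 kb from the LINC00322 probe, read -1.45 and -1.77 with the mimic and -0.89 and -1.12 with the control. It was lower like LINC00322, by -0.61, without overlap (SE 0.15, adjusted p = 0.131). TPST1, a tyrosine sulfotransferase gene 19.8 kb from the LINC00174 probe, read 2.63 and 2.62 against 2.80 and 2.86. Its difference of -0.20 (SE 0.04, adjusted p = 0.107) was opposite to that of LINC00174.

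**Figure D5:**
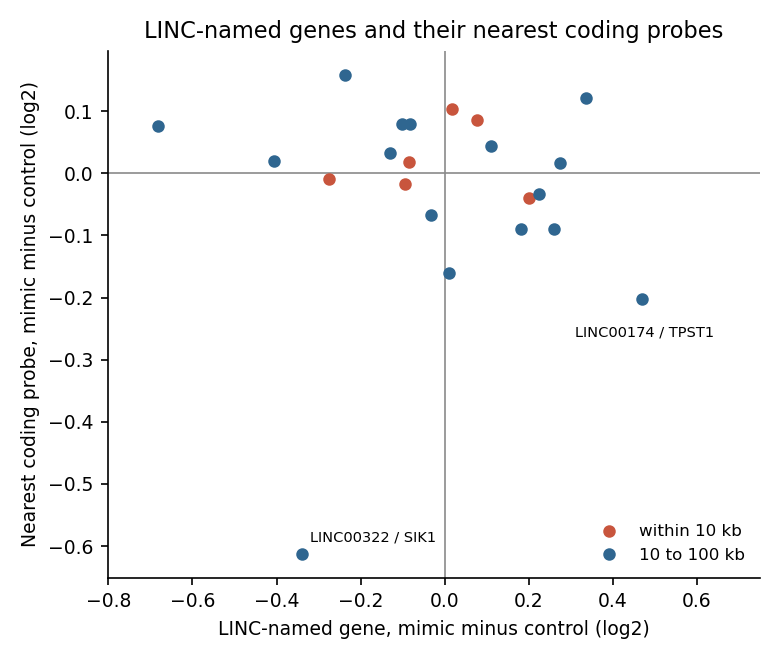
Mimic minus control difference of the nearest tested messenger RNA probe (log2, vertical axis) against that of the LINC-named gene (log2, horizontal axis) for the 22 pairs within 100 kb, of whose members 16 are classed long noncoding and 6 protein-coding. Red points lie within 10 kb and blue points beyond. In 13 of the 22 pairs the signs are opposite, and the lowest is LINC00322 with SIK1. Some pairs share the same neighbor probe.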

How the data were processed

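Expression was measured on 4 Agilent SurePrint human arrays, 2 per group, on 1 slide scanned once. The authors deposited spot intensity values from Feature Extraction (10.7.3.1 per the file headers), background-subtracted within each array and not normalized between arrays. Here, outlier-flagged spots were left out (356 to 395 per array), replicate spots averaged, and log2 intensity was centered on each array's 75th percentile. A probe was tested where it was well above background on both arrays of a group (20328 probes). The test was limma's moderated one (version 3.58.1, R 4.3.3, no intensity trend), with Benjamini-Hochberg adjustment over all of these. On simulated data the script recovered 55.2% of 1.5-fold, 61.2% of 2-fold and 87.9% of 4-fold changes, with 5 false calls. An exact permutation test of 2 against 2 arrays cannot go under p = 0.333. Genes are named if called, among the 8 largest rises or falls on all 4 arrays, with 2 or more tested probes, or on a role list, the brightest probe standing for a gene. Members and lists were chosen with earlier results of these data known. Alternatives covered normalization, scaling, background, filters, the fit, the fold limit and single arrays. Coordinates are hg19, from the files.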

Additional observations from a re-analysis of the deposited data

How the results depend on the processing

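The count of 4 called members was 4 with every spot required above background, a filter on all 4 arrays, robust eBayes and the deposited series values, and 3 with quantile normalization or scaling to detected probes. It was 11 with normexp, 14 with an intensity trend and 21 with spike-in scaling, each without the share of all tested probes beside it. It was 0 without a filter (20 at an unadjusted p under 0.05) and with a filter on at least 1 array (22 unadjusted). It was also 0 with the methods' t-test (16 unadjusted) and with the replicate block (23 unadjusted), again without the share of all tested probes. Fits without 1 array leave 1 array in a group, so their calls are not given. The replicate numbers showed no pairing (correlation of the replicate differences 0.03). The 5 members over 1.5-fold became 0 with normexp, 35 without a filter, 9 with a filter on at least 1 array, 2 when all 4 pairings had to pass and 1 at 2-fold, and ranged from 4 to 8 without 1 array. The 8 came without control replicate 2. The median difference of 0.04 became -0.15 with spike-in scaling and ranged from 0.02 to 0.09 without 1 array. With spike-in scaling the sign also turned, at the brightest probe, in LINC00152 (-0.16), LINC00256A (-0.0062), LINC00263 (-0.18), LINC00265 (-0.078), LINC00338 (-0.11), LINC00472 (-0.11) and LINC00478 (-0.11). It turned in LINC00086 (0.028) and LINC00478 (-0.11) without control replicate 1, in LINC00263 without control replicate 2 (-0.11) and mimic replicate 2 (-0.13), and in LINC00472 without mimic replicate 2 (-0.011). Without 1 array these ranged from -1.39 to 0.028 (LINC00086), -0.11 to 0.27 (LINC00478), -0.13 to 0.15 (LINC00263) and -0.011 to 0.16 (LINC00472). The causes were not tested. A slide block was not run, since all arrays share 1 slide. Dim probes limit the values: 162 of the 231 probes gave only an upper bound.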
